A study of Caenorhabditis elegans with 2 samples.

Results

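Chromatin immunoprecipitation of the meiotic cohesin subunit REC-8 gave 228 strong peaks at the starts of protein-coding genes on the 5 autosomes of Caenorhabditis elegans. They come from a list of 10019 regions called on both replicates pooled, which is deposited as peaks and background before the authors' reproducibility threshold. The weaker peaks set beside the members below may therefore include background. The members were selected on measured values: a signal at or above a fixed minimum in the pooled list, which lies between 92.65 and 92.77, and a summit from 1000 bp upstream to 500 bp downstream of a protein-coding transcript start. Their summits also lay more than 250 bp from every annotated tRNA, snoRNA, snRNA and rRNA gene. Of the 734 nuclear peaks at or above that minimum, 569 were autosomal, 315 of these lay in a start window, and 228 of these were clear of the short RNA genes. The members lay between 92.77 and 469 in pooled signal, and a high signal is therefore not a finding. Just inside the minimum were the peaks at Y41C4A.9 (93.2), Y116A8C.9 and arf-6 (93.1), tba-2 (92.85) and fubl-1 (92.77), and just outside it those at C16A11.3 (92.65), wrm-1 (92.64), cec-6 (92.3) and pigk-1 (92.3).

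The worms were strain YL581 hermaphrodites that carry an insertion at rec-8 giving REC-8 a C-terminal GFP-FLAG tag, grown to the young adult stage, 50 hours after bleaching and arrest of the hatchlings as starved L1 larvae. Both samples, replicates 1 and 2, are whole worms of this 1 genotype, and the labels name no other group, so there is no comparison between conditions and no test. Each replicate has its own protocol document. The sample description names an anti-GFP antibody and the antibody field names rec-8. Worms without the tag are not analysed here, so signal that any precipitation would give at these sites cannot be told apart from REC-8 signal. Whole worms hold germ cells and somatic cells together, and the cells a peak comes from cannot be told apart. The lists give no read counts, so depth is unknown.

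REC-8 is the kleisin, the closing subunit, of a cohesin ring that holds sister chromatids together in meiosis. In the worm it is made in the germ line, beside the other meiotic kleisins COH-3 and COH-4. Worm genes are dense, many are transcribed away from a shared short intergenic region, and many transcripts receive a trans-spliced leader, so that an annotated start is often the splice acceptor and transcription begins upstream of it.

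The stretches of 200 bp at the summits of 5 of the strongest members, none of which overlapped an annotated exon, are shown to let the words counted further on be seen in place, or be seen to be missing. They are from the RefSeq assembly WBcel235, the same as ce11, on the plus strand, 5′ to 3′. Capitals mark 4 short words in either orientation: AGCGTGTT, then TAGGCC, then GGCCAC, then TGCGCG. The words were chosen after the sequences and their counts had been seen. The first 3 stretches lie before 1 plus-strand gene each, and the last 2 lie between divergent genes.
K12H4.5, chrIII:8043877-8044076: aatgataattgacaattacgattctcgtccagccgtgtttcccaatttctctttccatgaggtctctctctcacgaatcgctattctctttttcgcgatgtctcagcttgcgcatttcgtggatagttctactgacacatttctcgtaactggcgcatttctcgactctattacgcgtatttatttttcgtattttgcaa
rpl-3, chrIII:3867469-3867668: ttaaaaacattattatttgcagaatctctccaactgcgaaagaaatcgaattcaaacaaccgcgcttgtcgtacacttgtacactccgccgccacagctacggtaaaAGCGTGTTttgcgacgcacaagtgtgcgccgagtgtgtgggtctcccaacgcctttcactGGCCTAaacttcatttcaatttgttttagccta
rpl-35, chrIII:7854573-7854772: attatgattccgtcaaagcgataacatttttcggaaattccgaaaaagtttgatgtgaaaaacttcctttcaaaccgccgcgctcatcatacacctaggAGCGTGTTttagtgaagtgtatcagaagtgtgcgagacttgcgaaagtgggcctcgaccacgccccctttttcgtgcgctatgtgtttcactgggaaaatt
rpl-15/K11H12.8, chrIV:654819-655018: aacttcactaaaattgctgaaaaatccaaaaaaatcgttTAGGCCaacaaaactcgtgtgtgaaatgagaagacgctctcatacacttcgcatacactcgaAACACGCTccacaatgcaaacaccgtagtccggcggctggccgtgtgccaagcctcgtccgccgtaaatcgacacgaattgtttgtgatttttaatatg
dpm-3/rps-23, chrIV:12391227-12391426: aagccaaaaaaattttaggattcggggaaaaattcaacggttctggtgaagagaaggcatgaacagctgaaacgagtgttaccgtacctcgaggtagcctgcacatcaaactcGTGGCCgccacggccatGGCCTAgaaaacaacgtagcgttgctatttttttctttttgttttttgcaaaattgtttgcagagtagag
The stretches at rpl-3 and rpl-35 hold AGCGTGTT in the reading direction of the gene, and the stretch at rpl-15, a minus-strand gene, holds its reverse complement. The stretch at dpm-3 and rps-23 holds 1 TAGGCC and 1 GGCCAC. The strongest member, at K12H4.5, holds none of the 4 words, and none of the 5 stretches holds TGCGCG.

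The strongest member lay at K12H4.5, an uncharacterized gene, with a signal of 469 in the pooled list, 257 in the replicate 1 list and 213 in the replicate 2 list. Next came rpl-3, a protein of the large ribosomal subunit, with 372 pooled, 187 in replicate 1 and 189 in replicate 2. The third was rpl-35, a protein of the same subunit, with 342 pooled, 170 in replicate 1 and 166 in replicate 2. These were the 3 highest members in both replicate lists as well as in the pooled list. Signal is the peak caller's value for each peak, and it is not scaled between lists. The peak between tasp-1, which encodes a homologue of the protease taspase, and K01G5.10 had 281 pooled, 141 in replicate 1 and 141 in replicate 2. That between rpl-15, another protein of the large ribosomal subunit, and K11H12.8 had 263 pooled, 142 in replicate 1 and 129 in replicate 2. That between atx-2, the worm ataxin-2, and ecps-1 had 243 pooled, 126 in replicate 1 and 109 in replicate 2. Below them the signals ran down to the minimum, and the median member had 114 pooled. The first 4 of these peaks were also the only members not 430 bp wide, with 235 bp at K12H4.5, 230 bp at rpl-3, 165 bp at rpl-35 and 109 bp at tasp-1.

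The remaining members among the 20 strongest, with pooled signals of 176 to 206, lay at genes of varied function. The peak before prp-19, a splicing factor with ubiquitin ligase activity, and emb-1, a subunit of the anaphase-promoting complex, had a pooled signal of 206, and the one at F56G4.6 and wbp-4 had 203. Signals near 200 were also found at swsn-3 (200), a subunit of the SWI/SNF chromatin remodelling complex, at W04C9.4 (199) and at cpg-1 (198), a chondroitin proteoglycan of the eggshell. The peak at W08A12.2 and unc-132 had 197, and the one at cux-7, C07H6.2 and lig-4, the DNA ligase of end joining, had 195. cdc-48.1, an AAA ATPase that extracts ubiquitylated proteins, had 195, and cox-5B, a subunit of cytochrome c oxidase, had 192. Further values were 192 at dhs-8, 187 at dpm-3 and rps-23, and 178 at C01G10.7 and ahsa-1, a co-chaperone gene. The last 2 of the 20, with 181 and 176, both lay at sms-3, which encodes a sphingomyelin synthase.

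Every member overlapped a peak in both replicate lists by at least 50% of the shorter peak (228 of 228), against 47.6% of the 3305 weaker autosomal peaks that met the other parts of the rule. The pooled list holds the reads of both replicates. At or above the minimum lay 734 nuclear peaks, and 733 passed the authors' reproducibility threshold, among them all 228 members. The overlap of the members was thus largely set by their choice. It describes them, and its contrast with the weaker peaks is not a finding. Their signals ran from 28.0 through a median of 61.8 to 257 in replicate 1, and from 29.8 through 56.2 to 213 in replicate 2. Among the 734 strongest nuclear peaks of each list, 181 members were found in replicate 1, 159 in replicate 2, 119 in both (52.2%, exact 95% interval 45.5 to 58.8) and 7 in neither. These 7 lay at zip-4 and nol-58, mrt-2, cox-6B, F46B6.6, hcp-6 and let-630, bir-1, and tba-2, and their pooled signals were at most 102. Intervals throughout are exact binomial ones that cover counting error only and take peaks as independent. The summits called in the replicates lay a median of 22 bp apart at members and 62 bp apart at weaker peaks found in both lists. Across the 228 members, which share 2 libraries and a restricted range of signal, Spearman's rho between the replicates was 0.22.

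**Figure D1:**
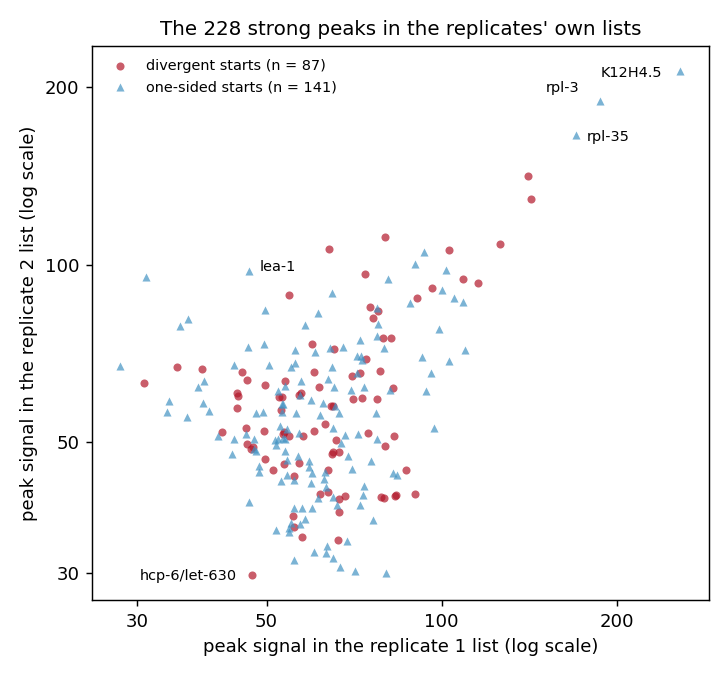
Peak signal of each of the 228 strong peaks in the replicate 1 list (horizontal, log scale) and the replicate 2 list (vertical, log scale), with circles for divergent and triangles for one-sided starts. K12H4.5, rpl-3 and rpl-35 stand at the upper right at 166 to 257, while the other peaks form a broad cloud around the medians of 61.8 and 56.2, in which a peak such as lea-1 (46.6 in replicate 1, 97.7 in replicate 2) differs between the lists.

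The summits lay mostly shortly upstream of a start. The signed distance to the nearest start had a median of -158 bp (quartiles -247 and -36.8), against -107 bp at weaker peaks (quartiles -400 and 128), where negative values are upstream in the sense of the gene. Of the members, 180 were upstream of the nearest start (78.9%, 73.1 to 84.1), against 62.2% of the weaker peaks and 61.9% of all bases of the start windows, which serve as a yardstick. The bin from 250 to just over 100 bp upstream held 89 members (39.0%, 32.7 to 45.7), against 14.4% of the weaker peaks and 10.9% of the window bases. Over 100 and up to 500 bp downstream lay 27 members (11.8%, 7.95 to 16.8), against 27.2% of the weaker peaks and 29.8% of the bases. These shares were not tested, since the members were chosen by the strength of the same peaks.

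**Figure D2:**
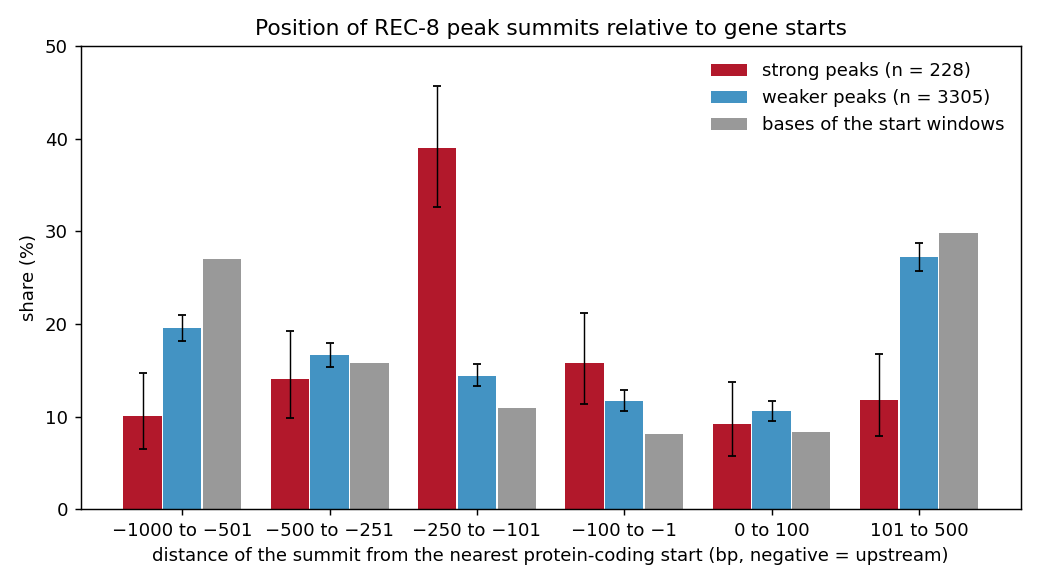
Share of the 228 strong peaks, of 3305 weaker peaks and of the bases of all autosomal start windows (vertical, in percent) in 6 classes of distance from the nearest protein-coding start (horizontal, in bp). Error bars are exact 95% binomial intervals, and the strong peaks exceed both yardsticks most in the class from 250 to just over 100 bp upstream, with 39.0%.

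The members nearest to a start were those at C01G10.9 and C01G10.10 (0 bp), and at Y73B6BL.29, Y38C1AA.12 and zip-4, a bZIP transcription factor (-5 bp each). Farthest upstream were the members at dhs-8 (-990 bp), Y22D7AL.6 (-951 bp) and T13C2.3 (-906 bp). Of the 228 summits, 144 lay between genes (63.2%, 56.5 to 69.4), against 37.7% of the weaker ones. Coding exons held 17 members (7.46%, 4.40 to 11.7), against 25.7% of the weaker peaks, introns held 27 members (11.8%), against 25.9%, and annotated 5′ UTRs held 17 (7.46%), against 4.21%. The remaining summits lay in 3′ UTRs (12) and in non-coding genes outside protein-coding ones (11).

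Because annotated starts can be splice acceptors, the letters before the members' nearest starts were read. The word TTTCAG, in the direction of the gene and within the 20 bp before the start, stood before 58 of the members' 227 distinct nearest starts (25.6%, 20.01 to 31.7), against 19.7% of the nearest starts of weaker peaks and 15.03% of all 25190 autosomal protein-coding transcript starts. Where the summit lay over 100 and up to 250 bp upstream, 32 of 89 starts (36.0%, 26.1 to 46.8) had it. For such genes the distance given here may run to a splice acceptor and not to the site where transcription begins, and initiation sites are not analysed here.

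Divergent starts, a minus-strand start to the left of a plus-strand start with the summit in both windows, made up 87 of the 228 members (38.2%, 31.8 to 44.8), against 14.2% of the weaker peaks (13.0 to 15.4) and 10.3% of the window bases. The other 141 members (61.8%) lay in windows of starts on 1 strand. No member lay between starts that face each other (0 of 228, upper limit of the interval 1.60%). Such sites made up 0.182% of the weaker peaks and 0.139% of the window bases, too few for a count of 0 to be informative. At 71 of the 87 divergent members (81.6%) the summit lay between both starts, against 66.7% of weaker divergent peaks. At 52 of these 71 (73.2%) it lay in the middle 50% of the gap, near the 67.0% of weaker peaks between both starts. The gap between the starts had a median of 432 bp (quartiles 264 and 674), against 524 bp at weaker divergent peaks and 658 bp over all 2382 adjacent divergent autosomal gene pairs under 2000 bp apart. It ranged from 15 bp at F25H9.7 and F25H9.6 to 1603 bp at hcp-4, a centromere protein, and pgk-1. The closest start was a median of 129 bp downstream of the summit at divergent members and 196 bp downstream at one-sided members, and the median pooled signal was 114 at divergent and 113 at one-sided members.

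At some divergent members the summit lay near the centre of the gap. Between dpm-3, a subunit of the enzyme that makes dolichol-phosphate mannose, and rps-23, a protein of the small ribosomal subunit, the summit lay 260 bp from the start of dpm-3 and 274 bp from that of rps-23 in a gap of 534 bp. The summit between F56G4.6 and wbp-4 lay 108 and 178 bp from their starts, in a gap of 286 bp. By contrast, at tasp-1 and K01G5.10 it lay 67 bp from the start of tasp-1 and 718 bp from that of K01G5.10. The 838 bp gap between atx-2 and ecps-1 held a member at each side. One had its summit 62 bp before atx-2, with a pooled signal of 243, 126 in replicate 1 and 109 in replicate 2, and the other lay 170 bp before ecps-1, with 113 pooled, 68.3 in replicate 1 and 40.6 in replicate 2. Both replicate lists were higher on the atx-2 side.

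Among the 141 one-sided members, the gene next upstream pointed the same way in 96 (68.1%), and pointed away beyond the reach of its own window in 45. Near divergent neighbours are left out of this group by definition. No such shares are given for weaker peaks or all genes, so these values cannot be read as particular to the members. The tandem gap between the end of the upstream gene and the start had a median of 396 bp (quartiles 196 and 712), and 4 of the 96 genes overlapped their upstream neighbour. The summit lay inside the upstream gene in 11 of the 96 and inside it or within 100 bp of its end in 30. At cdc-48.1 the summit lay 135 bp upstream of the start in a tandem gap of 704 bp, and at swsn-3 it lay 158 bp upstream in a tandem gap of 676 bp, inside an intron of cox-6B. At cpg-1 it lay 220 bp upstream, and the next gene upstream was 11786 bp away.

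Within the members these shares differed little with signal. The 114 with lower signals (up to 114) had 36.8% at divergent starts (28.0 to 46.4) and the 114 with higher signals (up to 469) had 39.5% (30.4 to 49.1). The shares over 100 and up to 250 bp upstream were 42.1% (32.9 to 51.7) of the lower and 36.0% (27.2 to 45.5) of the higher members. The 114 weaker peaks just below the threshold, with signals of 81.3 to 92.65, had 28.9% at divergent starts (20.8 to 38.2) and 25.4% in that bin (17.7 to 34.4). The intervals of these 3 classes overlap. Over 4 equal classes of all weaker peaks by signal, the divergent share lay between 11.7% and 13.1% in the lower 3 and was 19.5% in the top one.

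**Figure D3:**
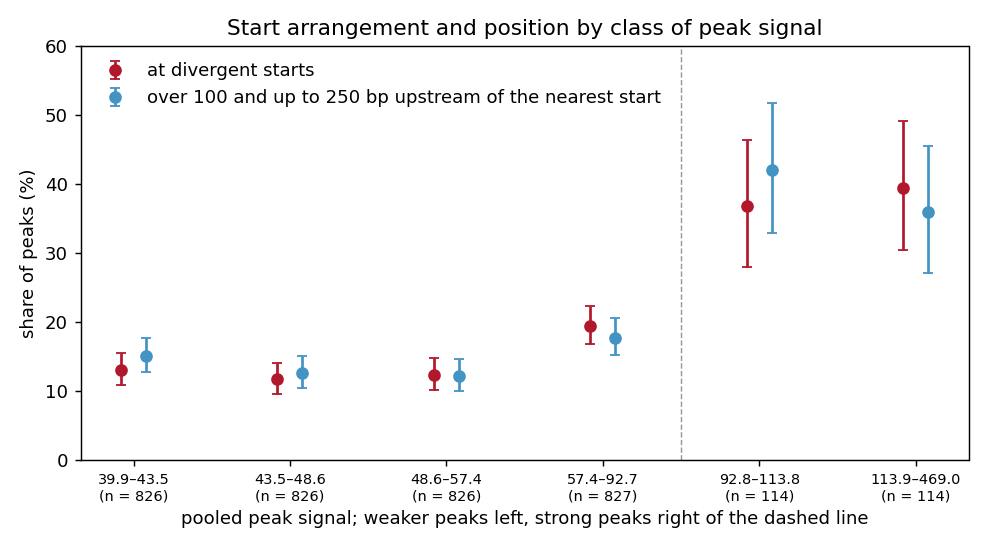
Share of peaks (vertical, in percent) at divergent starts and over 100 and up to 250 bp upstream of the nearest start, by class of pooled signal (horizontal, low to high), with exact 95% binomial intervals. The 4 classes of weaker peaks lie between 11.7% and 19.5%, and the 2 classes of the strong peaks between 36.0% and 42.1%.

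Averaged over the members, the sequence had a GC-rich core between AT-rich sides. GC content over 200 bp had a median of 40.8% at member summits and 38.0% at weaker peaks, and 38.5% in stretches centred 1000 bp to both sides of the members. In bins of 20 bp, GC content reached 47.9% at the members' summit. It fell to 32.2% at 130 bp in the reading direction of the nearest gene, while at weaker peaks the highest bin had 40.1%. Within 40 bp of the summit the members had 46.0% GC, with 48.9% at divergent and 44.2% at one-sided members, against 39.7% at weaker peaks. The highest GC over 200 bp was at Y71G12B.23 (64.5%), egl-30 and C53H9.4 (63.5%), and mdt-26 and ift-43 (60.5%), and the lowest at adss-1 (26.5%), C23G10.1 (26.5%) and, with 28.5% each, lea-1 and K12D12.5. The share of members with GC over 200 bp above that of their own flanks was 61.8% (55.2 to 68.2), against 57.6% of weaker peaks. A stretch of 200 bp takes in the AT-rich sides, so this share does not show how many members had the core. The core is an average, and members with it were not counted.

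T was the most frequent base on the gene side of the summit, the side in the reading direction of the nearest gene. On the strand of that gene, the stretch 80 to 160 bp from the summit on this side had 37.2% T and 29.1% A at members. Weaker peaks had 32.4% T and 30.3% A there. At the 48 members with a summit at or downstream of the start, this stretch runs into the gene and away from the start. On the far side, the same distance from the summit, members had 32.8% T and 33.6% A. At divergent members that side, which faces the other gene, had 29.2% T and 38.0% A, the mirror image of their gene side with 38.1% T and 30.1% A. At one-sided members the far side had 34.98% T and 30.9% A.

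**Figure D4:**
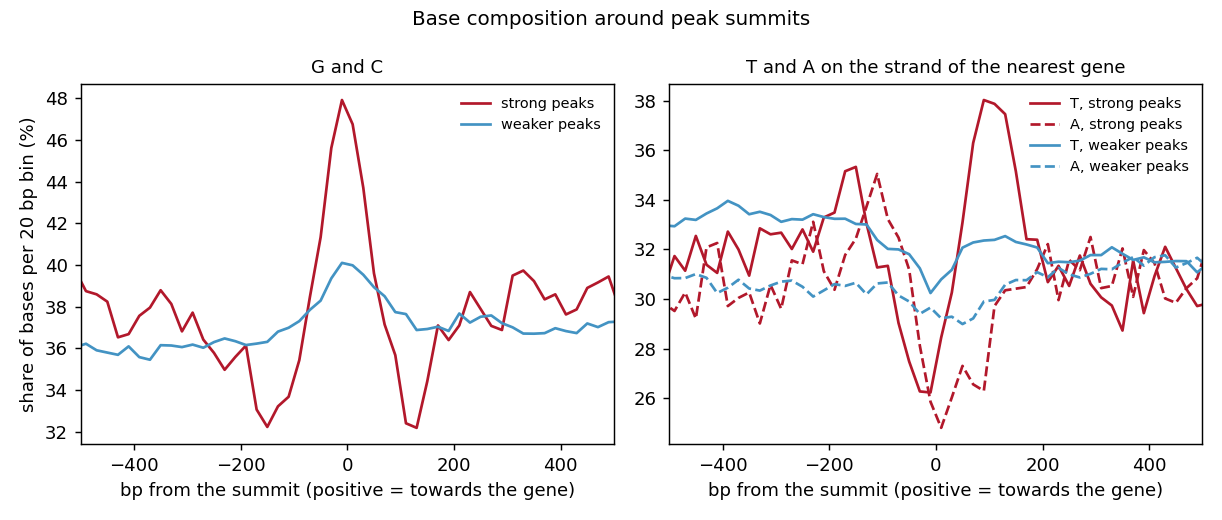
Base composition in 20 bp bins (vertical, in percent) by distance from the summit (horizontal, in bp) for strong and weaker peaks. Positive distances run in the reading direction of the nearest gene. GC is on the left, and T and A on the strand of that gene are on the right. The strong peaks show a GC maximum of 47.9% at the summit with a minimum of 32.2% on the positive side, where T reaches 38.0%. The weaker peaks vary less.

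Several GC-rich words were more frequent at member summits than in the yardstick sets. The first 3 words below were picked, with counts known, from those with the largest excess at members over their flanks. Their excess over the flanks was thus set by this choice and is not a finding. The contrasts with weaker peaks and upstream stretches, also for the 3 words together, rest on the same selected member counts. They describe the members only. TAGGCC or its reverse complement occurred in the 200 bp of 42 members (18.4%), against 5.96% of weaker peaks, 3.73% of the members' flanks and 3.02% of all stretches of 200 bp upstream of autosomal protein-coding genes. GGCCAC occurred at 46 members (20.2%), against 6.54%, 2.85% and 2.99% of the same sets, and TGCGCG at 50 members (21.9%), against 7.35%, 3.73% and 4.22%. At least 1 of these 3 words stood at 100 members (43.9%), against 17.0% of weaker peaks and 9.24% of the upstream stretches. TAGGCC stood at 27.6% of divergent and 12.8% of one-sided members, GGCCAC at 29.9% and 14.2%, and TGCGCG at 25.3% and 19.9%. AGCGTGTT ran the other way, with 2.30% of divergent and 4.26% of one-sided members. The words TAGGCC and GGCCAC can share letters, all 3 are GC-rich like the core, and their counts were not tested. AGCGTGTT stood at 8 members (3.51%), against 0.635% of weaker peaks, 0.877% of the members' flanks and 0.493% of the upstream stretches. The 8 lay at rpl-3, rpl-35, tasp-1 and K01G5.10, rpl-15 and K11H12.8, cdc-48.1, Y39B6A.43, scc-2 and tba-2. This word was chosen after the stretches at rpl-3, rpl-35 and rpl-15 had been seen. Its excess at members was thus partly set by the choice and is not a finding.

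Known short motifs, searched on both strands in the same 200 bp, were set beside the same 3 sets, given below in the order weaker peaks, members' flanks and upstream stretches. GCGCGC stood at 38 members (16.7%, 12.1 to 22.2), against 5.05%, 2.19% and 2.60%. TTCCCGC, the core of an E2F-like site, stood at 15 (6.58%, 3.73 to 10.6), against 3.66%, 1.75% and 2.30%. TATAAA stood at 31 (13.6%, 9.43 to 18.7), against 18.9%, 17.8% and 30.6%. The word TGATAA, read by factors of the GATA family, stood at 24 (10.5%, 6.86 to 15.3), against 13.6%, 16.9% and 22.8%. CACGTG, the E box, stood at 5.26% of members, against 4.15%, 4.39% and 4.36%. TTCNNGAA, a heat shock element pair, stood at 15.4%, against 12.6%, 15.8% and 12.3%, so members had no more of it than their own flanks. TTTTTTTT stood at 15.8%, against 20.9%, 16.4% and 26.4%, which is also close to the flanks. GAGAGA stood at 14.0%, against 14.5%, 9.43% and 16.2%, and TGACGTCA at 0 of 228, against 1.12%, 0.877% and 1.00%. A match is a run of letters and not evidence that a factor binds there.

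GTTCGANNC, the core of the B box of promoters read by RNA polymerase III, stood at 10 members (4.39%, 2.12 to 7.92), against 1.82% of weaker peaks, 1.97% of the members' flanks and 0.882% of upstream stretches, although members are by rule away from annotated tRNA genes. All 4 members of a small cluster on chromosome III held it. Of these, 3 lay at sms-3, with their summits 516 bp upstream, 187 bp downstream and 191 bp downstream of its starts and pooled signals of 181, 176 and 109. The fourth lay 951 bp upstream of Y22D7AL.6 with 147, and it was the only member with a tRNA gene within 1000 bp, at 607 bp. At Y69A2AR.31 the summit, with a pooled signal of 130, lay inside a pseudogene that RefSeq annotates as a tRNA pseudogene. The remaining members with the core were those at dhs-8, Y53G8AL.4 and nduf-9, rpi-2, adss-1, and rpl-12 and lin-54. Of all members, 21 (9.21%) lay within 250 bp of another annotated non-coding gene or pseudogene, against 7.44% of weaker peaks. They include dhs-8 (ncRNA K10H10.14) and tba-7 (ncRNA T28D6.13), and the microRNA loci cel-mir-4936 at Y53G8AL.4 and nduf-9 and cel-mir-4932 at klp-16 and smn-1. The part of these features in the signal was not tested.

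The windows that held the 228 summits belonged to 325 of 17242 autosomal protein-coding genes, or 1.88% of them, and a further 3346 genes (19.4%) had weaker summits only. A single gene was concerned at 131 members, a pair at 89 and 3 genes at 8. Such triple cases were the members at prp-19, emb-1 and K10D2.5, at his-67, his-68 and alg-5, and at smc-3, mib-1 and gly-9. A gene counted when its window held a summit, also where the start of another gene lay nearer. The counts that follow are read against 1.88% and were not tested.

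Of the 28 gene lists examined, cytosolic ribosomal proteins had the largest share. Of their 81 genes, 16 (19.8%) had a member summit, and 40 more had weaker summits only. These 16 genes had 17 member summits, with 2 at rpl-12. At rps-23, rpl-20, rps-19, rps-20, ubq-2 and rpl-29 the nearest start was that of another gene. The summit at rpl-32 lay in a coding exon of chmp-7. Taking the strongest summit of each gene, it lay upstream at 12 of the 16, 230 to 613 bp from the start with a median of 303 bp, and 8 of these 16 summits were at divergent and 8 at one-sided starts. Beside rpl-3, rpl-35, rpl-15 and rps-23 stood rpl-20, with 175 pooled, 64.1 in replicate 1 and 106 in replicate 2, and rps-19, with 166 pooled, 75.2 in replicate 1 and 84.6 in replicate 2. The word AGCGTGTT stood at 3 of these 16 summits, those at rpl-3, rpl-35 and rpl-15, against 3.51% of all members. It was chosen after these 3 stretches had been seen, so this count is not a finding about the list. Translation factors had 4 of 42 genes (9.52%): eif-3.C (126), a subunit of an initiation factor, eef-2 (121), the elongation factor that moves the ribosome, and tufm-2 (112) and gfm-1 (93.6), related to the mitochondrial elongation factors. Mitochondrial ribosomal proteins had 2 of 70 (2.86%), near the share of all genes: mrpl-18 (103) and mrps-35 (97.7).

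Genes of protein folding, respiration and membrane traffic had between 9.09% and 11.5%. Of 61 heat shock and chaperonin genes, 7 (11.5%) had a member: hsp-60 (158), the mitochondrial chaperonin, hsp-90 (141), dnj-29 (113), cct-8 (112), a subunit of the cytosolic chaperonin, hsp-110 (106), dnj-28 (105) and dnj-9 (103). Respiratory chain and ATP synthase genes had 5 of 46 (10.9%), led by cox-5B (192), atp-5 (142), a subunit of ATP synthase, nduf-9 (132), of complex I, and cyc-1 (103), cytochrome c1. Vesicle traffic genes had 11 of 121 (9.09%), among them sec-61.G (158) and sec-61.B (137) of the translocon, vps-32.1 (143) of the ESCRT machinery, and trap-3 (137).

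Genes of chromosomes and the nucleus were also represented. Histones had 7 of 77 genes (9.09%), and these had 5 member summits, all but that at hcp-3 shared by a divergent pair: his-59 and his-60 (164, and a second of 110), his-67 and his-68 (127), his-61 and his-62 (115), and hcp-3 (100), the centromeric histone H3 variant. At his-60 and his-61 the stronger or only summit lay inside the coding exon, 199 and 196 bp downstream of the start. Chromatin regulators had 8 of 109 (7.34%), led by swsn-3 (200), set-16 (162), a histone methyltransferase, epc-1 (135), the enhancer of polycomb homologue, and hat-1 (131), a histone acetyltransferase. Cohesin itself had 2 of 14 (14.3%): scc-2, the cohesin loader, with 156 pooled, 94.1 in replicate 1 and 61.0 in replicate 2, and smc-3, a core subunit, with 113 pooled, 65.1 in replicate 1 and 48.2 in replicate 2. Condensin and dosage compensation genes had 2 of 12 (16.7%), mix-1 (98.0) and hcp-6 (95.7). The cohesin and condensin lists are too short for the share of all genes to give a whole gene. Their percentages rest on 2 genes each, so they cannot be ranked against those of the longer lists. Splicing genes had 6 of 91 (6.59%), led by prp-19 (206), mog-4 (140), lsm-6 (118) and lsm-8 (114), and cell cycle genes 6 of 104 (5.77%), led by emb-1 (206), cdc-48.1 (195), the replicative helicase subunit mcm-4 (142) and the retinoblastoma homologue lin-35 (124). The prp-19 and emb-1 values are of 1 peak, 622 and 772 bp from their starts, whose nearest start is that of K10D2.5 at 53 bp.

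Genes of the germ line, where REC-8 is made, did not lead the ranking. The share of the germ line and oocyte list was above the 1.88% of all genes, but it rests on 3 genes and was not tested. Weaker summits alone lay at 41.8% of that list, against 19.4% of all autosomal protein-coding genes. Germ line and oocyte genes had 3 of 67 (4.48%), cpg-1 (198), mex-1 (110) and pie-1 (104), the last a repressor of transcription in germ line blastomeres. The summit counted for mex-1 lay 901 bp upstream of its start, and the nearest start was that of W03C9.5 at 192 bp. Among genes for the axis and the synaptonemal complex of meiotic chromosomes, 1 of 18 had a member, syp-6 (101). Of those for meiotic recombination and pairing, 0 of 34 had one. Both lists are too short for 1.88% to give a whole gene, and weaker summits alone lay at 33.3% and 23.5% of them. Sperm protein genes had 1 of 72 (1.39%), spe-48 (157). Nuclear pore and transport genes had 2 of 42, npp-6 (101) and npp-8 (98.6), the ubiquitin system 3 of 62, uba-1 (107), ubq-2 (99.8) and usp-4 (98.6), and the cytoskeleton 4 of 77, tba-7 (169), klp-16 (113), spd-5 (101) and tba-2 (92.85). Aminoacyl-tRNA synthetases (ears-2, 171), the proteasome (rpn-3, 106) and the vacuolar ATPase (vha-2, 102) had 1 gene each, of 32, 33 and 18.

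The lists of chemoreceptor, collagen, neuronal, intestinal and muscle genes had few members or none, as did the broad list of transcription factors. Of 1276 chemoreceptor genes, 3 (0.235%) had a member summit, sre-1 (128), srh-2 (118) and srh-16 (109), and of 411 transcription factor genes 1 (0.243%), zip-4 (102). Cuticle collagens had 2 of 145 (1.38%), col-63 (127) and col-71 (114), which is near the share of all genes. Neuronal genes had 0 of 243, genes of the intestine 0 of 480 and body muscle genes 0 of 35, a list too short for 1.88% to give a whole gene. Weaker summits alone lay at 14.8% of the neuronal, 10.8% of the intestinal and 31.4% of the muscle genes, against 19.4% of all autosomal protein-coding genes.

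**Figure D5:**
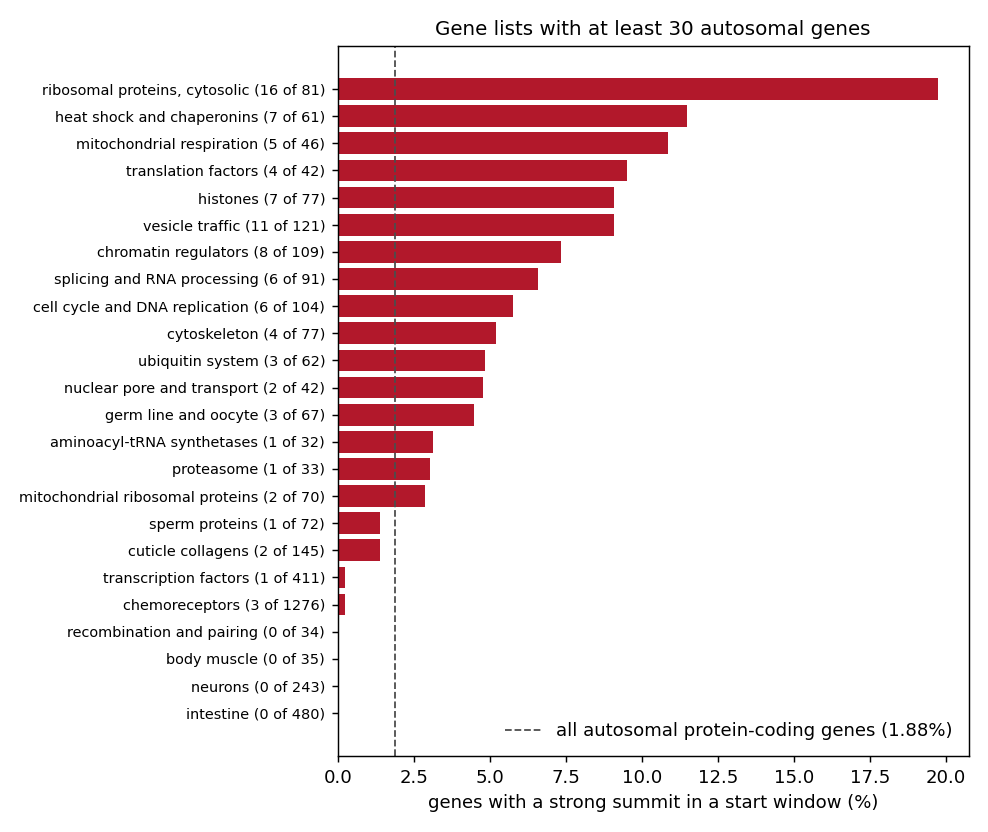
Share of the autosomal genes of each list (horizontal, in percent) with a strong summit in a start window, for lists of at least 30 genes, with counts beside the names. The dashed line marks the 1.88% of all autosomal protein-coding genes, and cytosolic ribosomal proteins reach 19.8%, while recombination, muscle, neuron and intestine lists have none.

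The members were uneven over the chromosomes. Chromosome III held 60 (26.3%, 20.7 to 32.5), against 20.03% of the weaker peaks and 14.96% of the window bases. Chromosome V held 35 (15.4%, 10.9 to 20.7), against 22.2% of the weaker peaks and 28.4% of the bases. Chromosomes I, II and IV held 43, 41 and 49 members, or 18.9%, 18.0% and 21.5%, against 16.8%, 19.7% and 20.1% of the bases. The outer 30% at either end of the chromosomes held 55.7% of the members, against 54.9% of the weaker peaks and 55.9% of the bases. Of neighbouring members, 7 pairs were less than 2000 bp apart, namely 2 at sms-3, 2 in the histone cluster on chromosome IV, and 1 each at atx-2, rpl-12 and Y62F5A.12.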

How the data were processed

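The deposited lists of peaks for build ce11 were used: 17532 peaks of replicate 1, 14069 of replicate 2, 10019 of both pooled, and the pooled peaks past the authors' reproducibility threshold, which hold all 228 members. Per the file listings deposited with the samples, peaks were called against a control. The pooled list is labelled as peaks and background, ahead of the authors' threshold. Which aligner and caller were used is not given in the sources used here. The signal of a peak is the value the authors deposited, is not scaled between lists and was used only to describe, rank and choose peaks within a list. The minimum signal of a member was 92.7. For 224 of the 228 members the interval is 430 bp wide with the summit at its centre.

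Coordinates count from 1. Genes came from Ensembl release 115 on WBcel235, and sequences, products and tRNA pseudogenes from RefSeq. A replicate peak counted as overlapping when it covered 50% or more of the shorter interval. Calculations used Python 3.11.15 with scipy 1.17.1 and numpy 2.4.6, and the functions were tested on simulated data. Members and gene lists were chosen with earlier results of these data known. Lists match gene names by pattern, and all 28 are reported. Named genes are the 20 strongest members, up to 4 genes a list by signal, the members and peaks nearest the threshold, the extremes of distance, GC content and gene number, and members missing from the strongest peaks of both replicates. Further genes, among them those of the ribosomal, chaperone and histone lists beyond 4, were named after their values were seen. The sequence of 1 further member is not reported here.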

Additional observations from a re-analysis of the deposited data

How the results depend on the processing

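Of 81 recomputed values over 10 results, 73 stayed within the 95% interval of the reported value, or, for counts, within 1.5 times of it. Starting from the list of 1 replicate, with its 734 strongest nuclear peaks, gave 222 to 237 peaks with 32.9% to 33.8% at divergent starts, a median distance of -166 to -164 bp, 75.9% to 76.1% upstream, 40.5% GC, gaps of 418 to 442 bp, widths of 436 to 444 bp, and 307 to 326 genes. Overlap with both lists was not computed there, since 1 list is left. Keeping the members at or above the median signal gave 114 at 165 genes, of which 81.6% were within the strongest peaks of both replicates. Asking that the nearest starts on both sides point outward gave 31.6% divergent. GC content was 46.0% over 100 bp and 36.8% over 400 bp, since the GC-rich core is narrow. Leaving out summits within 250 bp of any other non-coding gene, an alternative added after seeing the data, gave 207 members with 37.7% divergent. No paired analysis was possible because the study has 1 group. Unknown depth limits what a missing replicate peak can show.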
